A study of Mus musculus with 3 samples.

Results

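The genes described here encode the intermediate filament proteins other than GFAP that the study's cell types could use in their cytoplasm: Vim, Nes, Synm, Nefl, Nefm, Nefh, Prph, Ina and Des. They are named by symbol, not by any measured value, and are 9 of the 31053 genes in the deposited tables. All 9 had UMIs in the cells that were kept. The cells came from L3 and L4 dorsal root ganglia (DRGs) of wild type male C57BL/6J mice aged 13 weeks. There was 1 library from untreated (naïve) mice, 1 library taken 7 days after spared nerve injury (SNI) of both hindlegs, and 1 library taken 14 days after it. Each library pooled 8 DRGs of 2 mice, so the mice cannot be separated. With a single library for each condition, differences between conditions are given as sizes with counting intervals and without a test. In SNI, branches of the sciatic nerve are cut while the sural branch is spared, so that a lumbar ganglion holds injured beside uninjured neurons. The paper's methods describe younger female mice and give no single cell preparation. Its results name a ligation of part of the sciatic nerve for the single cell data, while its discussion names SNI. The description above therefore follows the sample labels.

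Intermediate filaments are ropes of coiled-coil proteins that give a cell tensile strength, and each cell type builds them from its own set of subunits. Neurofilaments, made from NFL, NFM and NFH (Nefl, Nefm, Nefh) together with α-internexin (Ina) or peripherin (Prph), fill axons and set the calibre of myelinated ones. Peripherin is best known from the small neurons of the DRG. Vimentin (Vim) is the filament of mesenchymal cells and of many glia, nestin (Nes) is known from progenitors, Schwann cells and growing vessels, desmin (Des) is the filament of muscle, and synemin (Synm) is a large partner that joins other filaments rather than forming its own.

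By GENCODE vM21 (GRCm38, the mm10 build that the submitters' processing notes name), all 9 gene identifiers matched 1 annotated gene. Vim lies at chr2:13573927-13582826 and Nes at chr3:87971078-87980451, both on the plus strand with no other gene over them. Synm lies on the minus strand at chr7:67730160-67759742, Nefh on the minus strand at chr11:4938754-4948064, and Prph on the plus strand at chr15:99055174-99058978. Ina lies on the plus strand at chr19:47014698-47025327, where it meets the opposite-strand gene Nt5c2, and Des on the plus strand at chr1:75360329-75368579. Nefl (chr14:68083863-68089095, plus strand) lies within the span of Nefm (chr14:68082590-68124846, minus strand). Whether the counting used the strand is not given in the sources used here, so molecules from the overlap of Nefl with Nefm cannot be told apart with certainty.

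Promoter sequence is shown for Prph and Des, because these are the members whose UMIs were found almost entirely in neurons and in vessel wall cells, respectively. Each line gives the 120 bases just before the RefSeq start on GRCm38.p6, read on the gene's own strand (chr15:99055054-99055173 and chr1:75360172-75360291), with matches to the TATA box TATAAA or the E-box CAGCTG in capitals.
Prph: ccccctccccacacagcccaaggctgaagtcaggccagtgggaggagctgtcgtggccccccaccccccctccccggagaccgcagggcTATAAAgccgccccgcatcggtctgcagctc
Des: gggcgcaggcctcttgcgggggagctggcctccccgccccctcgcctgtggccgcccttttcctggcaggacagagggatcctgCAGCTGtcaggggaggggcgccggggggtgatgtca
In Prph the TATAAA ran from 31 to 26 bases before the start, and in Vim the same letters ran from 32 to 27. In Des the CAGCTG ran from 36 to 31 bases before the start, and in Ina from 135 to 130. Searched on both strands in the 250 bases before the start, TATAAA stood in 12.4% and CAGCTG in 13% of all 32851 RefSeq promoters, and each stood in 2 of the 6 members with an entry (Vim, Nes, Synm, Prph, Ina and Des). The AP-1 motif TGANTCA stood in 6.75% of all promoters and in 0 of these 6. These are matches of letters only.

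The naïve, 7-day and 14-day libraries held 3748, 3281 and 4908 barcodes with between 22343246 and 36550911 UMIs. After cells with fewer than 500 genes or over 20% mitochondrial UMIs and called doublets were left out, 3124, 2658 and 3808 cells remained. Between 1 and 6 barcode sequences were shared by any pair of libraries. Cells were assigned to a class from fixed marker genes, none of them a member, and class names below stand for cells that resemble that type by those markers. In the order naïve, 7 days and 14 days there were 127, 164 and 143 neuron-like cells (neurons hereafter), 642, 364 and 419 cells like satellite glial cells (SGC-like), and 1351, 1136 and 1631 like myelinating Schwann cells. The other classes held between 15 and 327 cells per library. The neurons of the 7-day library stood apart in depth, with a median of 3381.5 UMIs against 64113 in the naïve and 80460 in the 14-day library. In that library 107 of the 164 neurons had fewer than 10000 UMIs. Values for neurons with at least 10000 UMIs (106, 57 and 117) are therefore given beside the results that depend on them.

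Levels are given as CPM, the UMIs of a gene for every 1000000 UMIs in all cells of that class and library. Since the chemistry counts 1 3′ end per molecule, these levels need no division by gene length. Intervals in brackets are 95% exact intervals, and they cover counting error only, not the difference between mice or libraries. A member was called changed by a rule of size, at least 2-fold higher or lower than in the naïve library. The rule was applied to genes with at least 50 UMIs over both libraries of a class. Both injured libraries were compared with the same naïve library.

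The members divided the ganglion between them. Of all UMIs in gated cells, neurons held 97.7% for Nefl, 97.8% for Nefm, 93.8% for Nefh, 98.7% for Prph, 98.5% for Ina and 88.1% for Synm, while they held 41.8% of the UMIs of all genes. Neurons held 4.96% of the Vim UMIs. SGC-like cells held 50.3% and myelinating Schwann-like cells 31.6% of Vim. Of the Nes UMIs, 57.2% lay in myelinating Schwann-like cells, 22.6% in endothelial-like cells and 13.3% in SGC-like cells. Pericyte-like cells held 48% and vascular smooth muscle-like cells 48.2% of the Des UMIs. Of the UMIs of all genes, SGC-like cells held 16.9%, myelinating Schwann-like cells 23.1% and endothelial-like cells 9.18%. Pericyte-like cells held 0.730% of them and vascular smooth muscle-like cells 1.39%. The share of Nes in SGC-like cells was thus below their share of all UMIs.

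**Figure D1:**
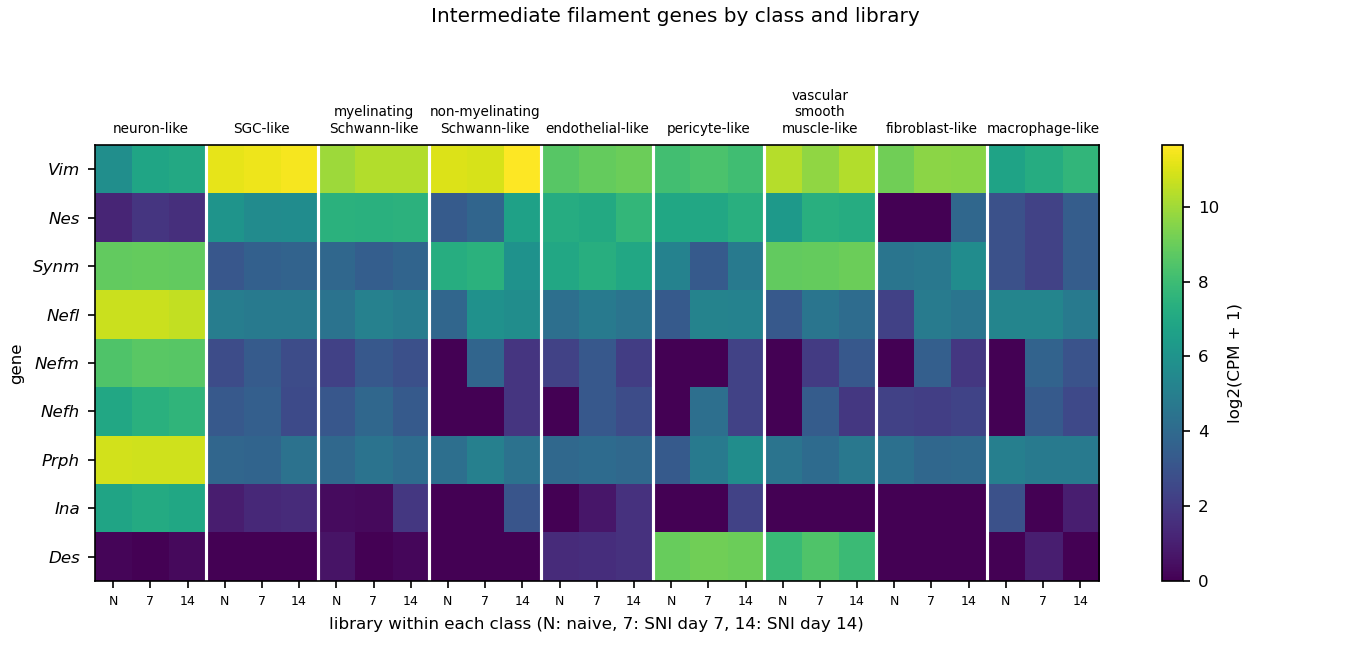
Heat map of the level of each gene, as log2(CPM + 1), in 9 classes of cells (groups of 3 columns) and the naïve (N), SNI day 7 (7) and SNI day 14 (14) libraries. Nefl and Prph were highest in neurons (1534 to 1816 CPM), Vim in glia-like cells, and Des in pericyte-like and vascular smooth muscle-like cells (234 to 564 CPM).

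In neurons, 7 of the 9 members had enough UMIs for the rule of size, and 1 of them, Vim, was at least 2-fold higher than in the naïve library at 7 days, where 3.76% of all 11099 genes tested were past that size in either direction. At 14 days Vim was again the 1 member of 7 past that size, beside 5.74% of 11797 genes. The median log2 ratio of the 7 members was 0.24 and 0.13 at the 2 times, where all genes tested had medians of 0.02 and 0.08. Nes (11, 16 and 25 UMIs) and Des (1, 0 and 3 UMIs) were below the minimum.

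Of the neurofilament subunits, Nefl, the light chain that starts filament assembly, was the most abundant. It stood at 1701 CPM [1674 to 1729] in naïve neurons, 1673 [1642 to 1705] at 7 days and 1534 [1513 to 1556] at 14 days. A UMI of it was found in 99.2% of naïve neurons, against 12% of naïve SGC-like cells at a median of 5390.5 UMIs. The level at 7 days differed from the naïve level by less than the counting error, and the level at 14 days was slightly lower, with a log2 ratio of -0.15 [-0.18 to -0.12].

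Nefm, the medium chain, stood at 341, 403 and 386 CPM in naïve, 7-day and 14-day neurons. Nefh, the heavy chain of the thickest axons, stood at 127 [119 to 135], 169 [159 to 179] and 193 [186 to 201] CPM. Both injured libraries were above the naïve one for these chains, by a log2 ratio of 0.24 and 0.18 for Nefm and of 0.41 and 0.61 for Nefh. Neither chain reached 2-fold. The median naïve neuron had 72.5 CPM of Nefh and the highest 1929 CPM.

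Prph was the most abundant member in neurons, with 1816, 1777 and 1797 CPM. The 3 libraries were nearly level, and the intervals of both log2 ratios included 0 (-0.03 [-0.07 to 0.00] and -0.01 [-0.04 to 0.01]). Ina stood at 112, 138 and 123 CPM, highest at 7 days, with log2 ratios of 0.30 and 0.13. Over all neurons together Synm was as steady as Prph, with 463, 470 and 459 CPM and log2 ratios of 0.02 [-0.05 to 0.09] and -0.01 [-0.07 to 0.05]. Within neuron types Synm differed between libraries, as given below. In neurons with at least 10000 UMIs alone, Vim was again the 1 member past 2-fold, with log2 ratios of 1.06 and 1.32, and no other ratio was above 0.59.

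**Figure D2:**
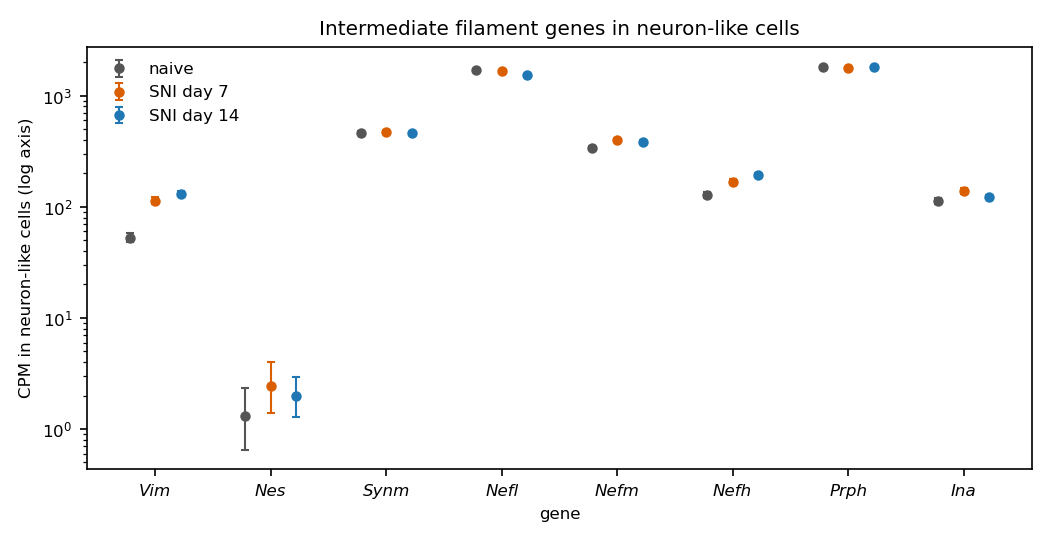
CPM of 8 genes in neuron-like cells on a log axis, with 95% exact Poisson intervals (some smaller than the symbol), for the naïve, SNI day 7 and SNI day 14 libraries. With all neuron types together, Prph, Nefl and Synm were at nearly the same level in the 3 libraries, and Vim was higher in both injured libraries (113 and 131 CPM) than in the naïve one (52.8 CPM).

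The levels of the subunits also differed between types of neuron. Types were assigned from fixed markers, with 5, 6 and 4 neurons of the large-diameter A-fibre type, 42, 78 and 29 of the Mrgprd type (non-peptidergic nociceptors), 28, 21 and 57 of the peptidergic type, 33, 10 and 14 C-LTMRs (low-threshold mechanoreceptors with unmyelinated fibres) and 8, 6 and 19 of the Sst type (itch neurons). Of the others, 6 neurons were assigned to the Trpm8 type, 1 to the Mrgpra3 type and 67 to no type, of which 42 were from the 7-day library. The makeup of the captured neurons thus shifted between libraries, from Mrgprd neurons at 7 days to peptidergic ones at 14 days. Of the 78 Mrgprd neurons at 7 days, 15 had at least 10000 UMIs.

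Neurons of the large-diameter type, which give rise to thick myelinated axons, had the most Nefm and Nefh of the 5 main types in every library. Nefh stood there at 1300 CPM [1097 to 1530] in the naïve library, 1891 [1661 to 2145] at 7 days and 2684 [2471 to 2910] at 14 days, against 108, 142 and 118 CPM in Mrgprd neurons. The highest Nefh in any other type was 473 CPM, in 3 naïve neurons of the Trpm8 type. Nefl stood at 3748, 2327 and 3005 CPM in the large-diameter type, the highest of the 5 types except at 7 days, when Mrgprd neurons had 2456 CPM. Nefm stood at 1175, 1167 and 1697 CPM, and Prph at 690, 879 and 803 CPM, the lowest Prph of the 5 main types in each library. With at most 6 neurons per library, single cells weigh heavily here. Nefh ranged from 907 to 1929 CPM in the naïve neurons, from 0 to 2167 CPM at 7 days and from 1080 to 3790 CPM at 14 days. At 7 days 4 of the 6 neurons had a UMI of Nefh, at a median depth of 7516 UMIs. At 14 days 1 neuron held 476 of the 585 Nefh UMIs. Neurons of this type also carried much satellite glial RNA, with 1551, 3214 and 546 CPM of Fabp7, an SGC marker.

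Among unmyelinated types, Nefl followed the order Mrgprd, peptidergic, C-LTMR and Sst in the naïve library, at 2234 [2187 to 2281], 1691 [1614 to 1770], 1095 [1054 to 1137] and 455 [405 to 510] CPM. None of these intervals overlapped. At 7 days peptidergic neurons (1020 CPM) lay below C-LTMRs (1513 CPM), and at 14 days above them (1226 against 1026 CPM). Sst neurons stayed lowest, with 288 and 499 CPM at these times. Prph, by contrast, lay between 1465 and 2242 CPM in all 4 of these types and all 3 libraries.

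Ina and Synm had type patterns of their own. Ina was nearly missing from Sst neurons, with 1 UMI in 8 naïve neurons (1.53 CPM), 14.9 CPM at 7 days and 26 CPM at 14 days. In the other unmyelinated types Ina lay between 102 and 159 CPM. Synm was highest in C-LTMRs among these types, at 595, 692 and 681 CPM, and lowest in peptidergic neurons, at 291, 381 and 353 CPM. It stood at 440, 515 and 548 CPM in Mrgprd and at 388, 397 and 436 CPM in Sst neurons. In each of these types both injured libraries were above the naïve one, in Sst neurons with overlapping intervals. In the large-diameter type both were below it, at 637, 545 and 606 CPM, also with overlapping intervals. Nefm repeated the order of Nefl in the naïve library down to the Sst type, with 455 CPM in Mrgprd, 398 in peptidergic, 130 in C-LTMR and 105 CPM in Sst neurons, the last pair within counting error.

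**Figure D3:**
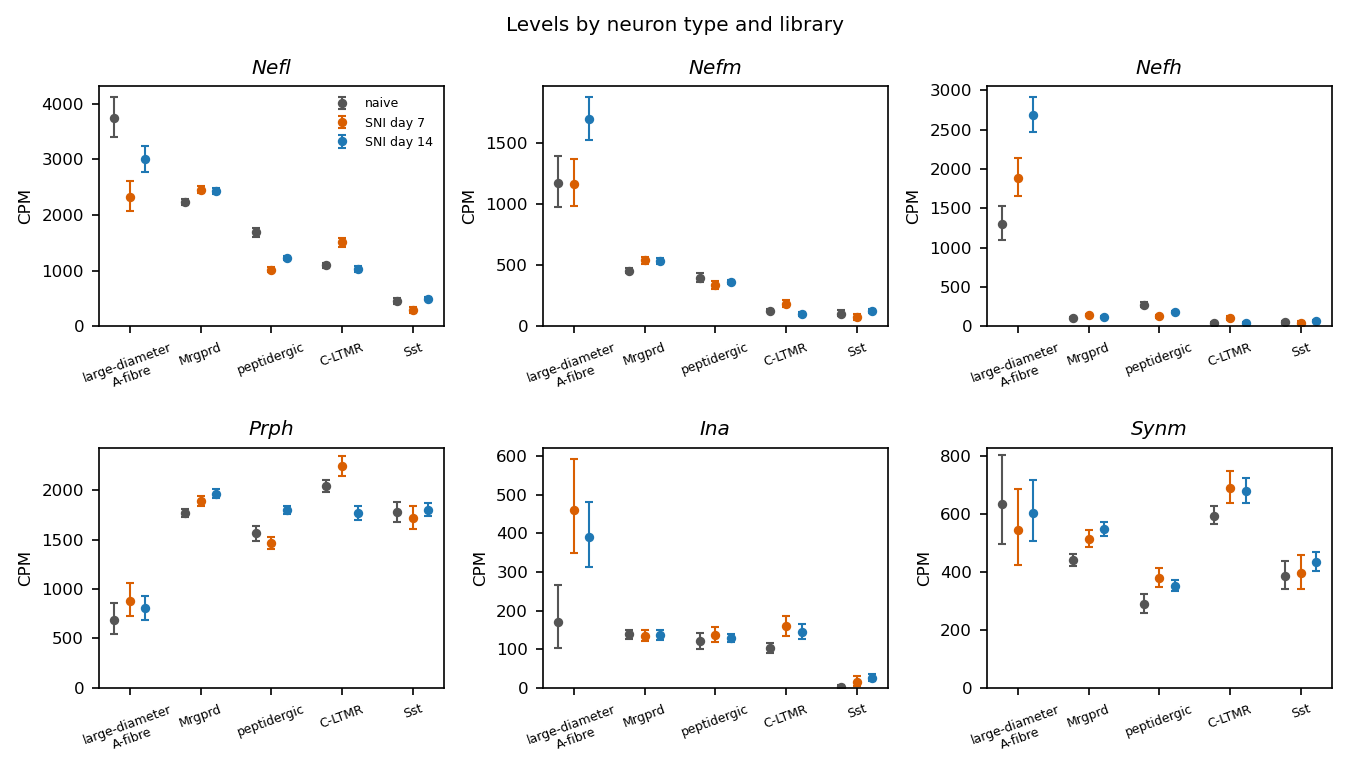
CPM (linear axes from 0) of Nefl, Nefm, Nefh, Prph, Ina and Synm in 5 neuron types, with 95% exact Poisson intervals, for the naïve, SNI day 7 and SNI day 14 libraries. Nefm and Nefh were highest and Prph lowest in the large-diameter type (690 to 879 CPM of Prph), and Ina was lowest in the Sst type (1.53 to 26.0 CPM).

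Within types the neurofilament genes also differed between libraries. Nefl of peptidergic neurons fell by 0.73 [0.63 to 0.83] on the log2 scale at 7 days and by 0.46 [0.39 to 0.54] at 14 days relative to naïve peptidergic neurons, short of 2-fold. In Mrgprd neurons the same log2 ratios were 0.14 and 0.12, and in C-LTMRs 0.47 at 7 days and -0.09 at 14 days. In peptidergic neurons with at least 10000 UMIs and under 100 CPM of Fabp7 (9, 4 and 21 neurons), Nefl kept its order at 1384, 871 and 1171 CPM. The peptidergic type was less sharply defined than the others compared here. When neurons were clustered alone, 19 of 28 naïve, 17 of 21 7-day and 49 of 57 14-day peptidergic neurons kept that type. Of the naïve Mrgprd neurons 41 of 42 did, and of the naïve C-LTMRs 33 of 33.

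Nefh differed by more, and less steadily. In peptidergic neurons it stood at 274, 129 and 182 CPM, a log2 ratio of -1.09 [-1.36 to -0.82] at 7 days. In the 9, 4 and 21 peptidergic neurons with little Fabp7 the direction turned, to 53.7, 184 and 167 CPM. In C-LTMRs Nefh stood at 40.5, 103 and 47.9 CPM, a log2 ratio of 1.35 [0.92 to 1.77] at 7 days on 10 neurons. Among naïve peptidergic neurons the median was 80.7 CPM of Nefh and the highest value 1431 CPM.

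Neurons whose axons were cut switch on Atf3, Sprr1a, Ecel1, Sox11 and Gal, which served as injury markers. Neurons with at least 500 CPM and 3 UMIs of these genes in sum numbered 11 of 127 in the naïve, 68 of 164 in the 7-day and 42 of 143 in the 14-day library. Each of these genes was higher in both injured libraries, but naïve neurons already had 105 CPM of Sox11, found in 92 of 127, and 42.0 CPM of Gal. Atf3, Sprr1a and Ecel1 stood there at 12.3, 7.20 and 3.90 CPM. High markers in a naïve neuron therefore do not show a cut axon, and 7 of those 11 neurons were peptidergic. Among neurons with at least 10000 UMIs there were 9 of 106, 16 of 57 and 36 of 117. In these deeper neurons Nefl stood at 1033 CPM [982 to 1085] with high and 1868 CPM [1829 to 1907] with low injury markers at 7 days, and at 1303 and 1622 CPM at 14 days. Synm was lower in the same direction, at 305 against 533 CPM at 7 days and 348 against 507 CPM at 14 days. Prph stood at 1545 against 1854 CPM at 7 days and at 1787 against 1803 CPM at 14 days.

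The makeup of types differed between these sets, since peptidergic neurons made up 8 of the 16 and 20 of the 36 with high markers. Within peptidergic neurons of both injured libraries the difference in Nefl was within counting error, and in the naïve library it was not, with 1436 [1311 to 1570] CPM in 6 neurons with high markers against 1819 [1722 to 1920] CPM in 17 with low markers. With high and low injury markers they had 1041 [971 to 1115] and 999 [924 to 1077] CPM of Nefl at 7 days, and 1217 [1169 to 1267] and 1236 [1192 to 1281] CPM at 14 days. All of these values lay below both naïve ones. For Synm, the peptidergic values were 343 against 429 CPM at 7 days and 341 against 363 CPM at 14 days.

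Vim was the 1 member past 2-fold in neurons, and it was also the member most exposed to RNA of the glia around them. It stood at 52.8 CPM [48.0 to 57.9] in naïve neurons, 113 [105 to 122] at 7 days and 131 [125 to 138] at 14 days, a log2 ratio of 1.10 [0.93 to 1.28] and 1.32 [1.16 to 1.47]. A UMI of Vim was found in 76.4%, 59.1% and 84.6% of neurons, the lowest share in the library whose neurons were shallowest. With every neuron thinned to 10000 UMIs, which left out 21, 107 and 26 neurons, the shares were 38.4%, 62.5% and 67.8%.

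Satellite glial RNA in the neurons, like Vim, was higher in both injured libraries than in the naïve one, although from 7 to 14 days it was lower while Vim was higher. All 7 SGC markers had UMIs in the neurons of every library, none was at 0, and they summed to 336, 577 and 509 CPM. Fabp7 alone stood at 208, 389 and 334 CPM. SGC-like cells held 0.281, 0.311 and 0.393 Vim UMIs per Fabp7 UMI. At these ratios the Fabp7 in the neurons would come with 58.4, 121 and 131 CPM of Vim, close to the Vim measured in them. With all 7 SGC markers in place of Fabp7 the same calculation gave 59.9, 110 and 118 CPM. RNA of myelinating Schwann-like cells, taken from their 8 markers, would add 4.16, 8.34 and 6.26 CPM. The 2-fold difference of Vim in all neurons therefore cannot be told apart from a difference in the glial RNA captured with them.

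Neurons with little glial RNA gave a second view. Of those with at least 10000 UMIs, 69, 24 and 53 had under 100 CPM of Fabp7. Their Fabp7 stood at 32.4, 27.6 and 47.4 CPM, and at the SGC ratio it would come with 9.12, 8.58 and 18.6 CPM of Vim, or 19.6, 17.6 and 30.7 CPM from all SGC markers. Their measured Vim was 30.7 [26.5 to 35.3], 66.8 [58.9 to 75.5] and 84.7 [78.4 to 91.4] CPM. The log2 ratio to the naïve library was 1.12 [0.85 to 1.40] at 7 days and 1.46 [1.23 to 1.70] at 14 days. Vim in these neurons was thus higher in both injured libraries than in the naïve one. The neurons were chosen for little Fabp7, which enters both glial estimates, so low estimates were set by that choice. The set was formed after the data had been seen, and the source of its Vim was not tested.

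The mix of types in this set also changed between libraries. In these neurons with little Fabp7, Vim stood at 21.4, 31.3 and 43.9 CPM in the Mrgprd type, 90.1, 162 and 127 CPM in the peptidergic type, 32.9, 58.0 and 49.7 CPM in C-LTMRs and 22.1, 77.2 and 97.7 CPM in the Sst type. Both injured libraries were above the naïve one in each of the 4 types, although 2 to 21 neurons stood behind each injured value. The intervals of the levels overlapped the naïve ones for the Mrgprd type at 7 days, the peptidergic type at 14 days and C-LTMRs at both times. The naïve values of the Mrgprd and Sst types were near the glial estimates of 20.3 and 21.2 CPM from all SGC markers, while the naïve peptidergic value was above its estimate of 23.2 CPM. The estimates of the 4 types lay between 16.7 and 29.6 CPM at 7 days and between 24.2 and 30.9 CPM at 14 days. When the 4 types were weighted as in the naïve library, over all neurons of those types, the log2 ratio of Vim was 0.74 at 7 days and 0.89 at 14 days, below 2-fold.

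**Figure D4:**
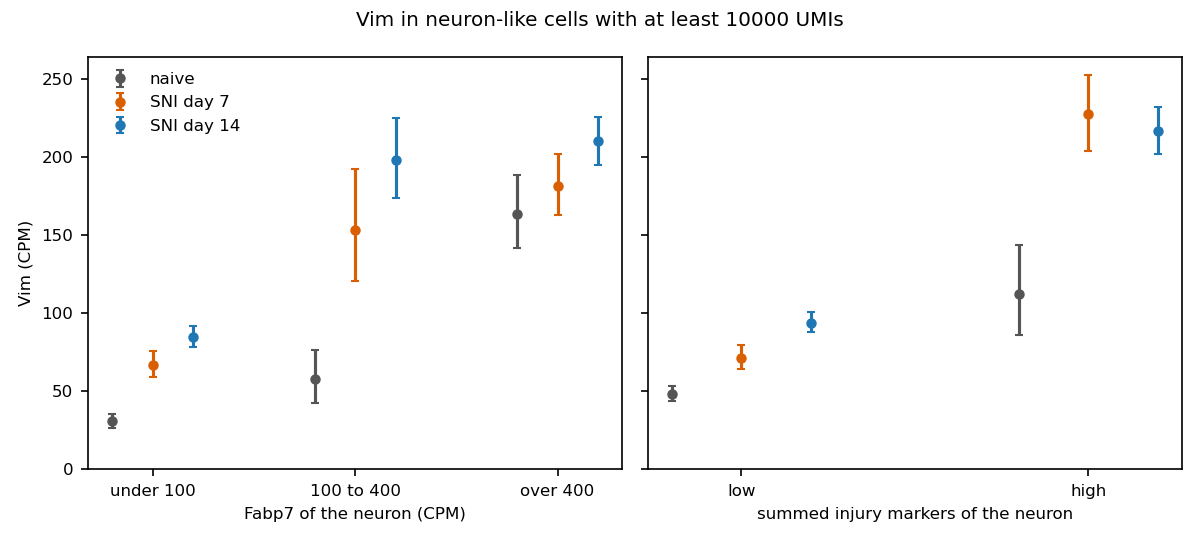
Vim (CPM, linear axis from 0, 95% exact Poisson intervals) in neuron-like cells with at least 10000 UMIs, divided on the left by the Fabp7 level of the neuron and on the right by its summed injury markers. Vim was higher in neurons with more Fabp7 in every library, and with under 100 CPM of Fabp7 it stood at 30.7 CPM in the naïve, 66.8 CPM in the 7-day and 84.7 CPM in the 14-day library.

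Vim was also higher in neurons with high injury markers. In neurons with at least 10000 UMIs it stood at 227 CPM [203 to 252] with high and 71.3 CPM [63.9 to 79.3] with low markers at 7 days, and at 216 and 93.8 CPM at 14 days. In the naïve library the 9 neurons with high markers had 112 CPM and the other 97 had 48.0 CPM. Fabp7 was also higher with high markers after injury, at 668 against 269 CPM at 7 days and 378 against 297 CPM at 14 days. With under 100 CPM of Fabp7 the values for Vim were 224 against 45.9 CPM at 7 days (3 and 21 neurons) and 176 against 54.1 CPM at 14 days (15 and 38 neurons). Among all peptidergic neurons with at least 10000 UMIs they were 219 against 143 CPM and 205 against 147 CPM. The sets did not have equal Fabp7 there, at 801 against 547 CPM at 7 days and 440 against 413 CPM at 14 days. In the naïve library the direction was the other way, with 116 CPM of Vim in 6 peptidergic neurons with high markers and 158 CPM in 17 with low markers, beside 50.4 and 763 CPM of Fabp7.

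Nefh also passed 2-fold in the neurons with at least 10000 UMIs and little Fabp7, where it stood at 79.6, 165 and 211 CPM in the 3 libraries. Within the Mrgprd type of that set it was 108, 161 and 123 CPM, within C-LTMRs 43.0, 130 and 47.3 CPM. The set was formed after the data had been seen. At 14 days a single large-diameter neuron held 476 of its 1660 Nefh UMIs, at 3790 CPM, while the medians over neurons were 72.3, 139 and 103 CPM. The mix of types in it changed from 33 Mrgprd and 9 peptidergic neurons of 69 to 15 and 21 of 53 at 14 days.

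In glia the main member was Vim, which passed 2-fold in no glia-like class. Its largest log2 ratio there was 0.61, in cells like non-myelinating Schwann cells at 14 days. In SGC-like cells Vim stood at 2369 [2324 to 2415], 2591 [2536 to 2647] and 2870 [2814 to 2927] CPM. The intervals did not overlap, and the log2 ratios were 0.13 and 0.28. None of 7 members tested at 7 days and none of 6 at 14 days was past 2-fold in SGC-like cells, where 0.737% and 1.29% of all genes were. The clusters of SGC-like cells led by Apoe or Fabp7 had 2440, 2672 and 2805 CPM, 2419, 2632 and 3023 CPM, and 2236, 2405 and 2548 CPM. The means rose from naïve to 14 days in each, but the intervals of the last cluster, with 10 cells at 14 days, overlapped. The other cluster, led by Ednrb, Itgb8 and Sox4, had 1684, 1671 and 2097 CPM.

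Myelinating Schwann-like cells had less Vim, at 990 [959 to 1022], 1257 [1226 to 1290] and 1250 [1223 to 1277] CPM, with log2 ratios of 0.34 at both times. Nes stood in them at 172, 165 and 177 CPM, levels that differed by less than counting error. In their cluster led by Spp1, Nes stood at 268, 286 and 310 CPM. SGC-like cells had 64.0, 48.1 and 49.8 CPM of Nes. Of 7 members tested in myelinating Schwann-like cells, 1 was past 2-fold at 7 days, beside 0.816% of all genes, and 0 of 7 at 14 days, beside 1.37%. The 1 was Nefm, a neuronal gene, with 15 UMIs against 39 (3.81 against 8.31 CPM). The neuron markers in the same cells summed to 108 and 147 CPM.

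In cells like non-myelinating Schwann cells, which ensheathe unmyelinated axons, 2 members could be tested. Vim stood at 2105, 1983 and 3203 CPM, and Synm at 153 [106 to 214], 171 [111 to 250] and 59.4 [38.1 to 88.5] CPM. Of these 2, none was past 2-fold at 7 days, beside 2.69% of all genes, and Synm was lower at 14 days, beside 4.83%, by a log2 ratio of -1.36 [-2.18 to -0.57]. With classes taken from clusters its ratio was -0.99, short of 2-fold. The class was not uniform: 90, 53 and 99 of its 117, 63 and 130 cells fell in 1 cluster led by Scn7a. In that cluster Vim stood at 2183, 2042 and 2612 CPM and Synm at 196, 198 and 81.4 CPM. The other cells of the class, 27, 10 and 31 in number, had 1913, 1754 and 4250 CPM of Vim. Nes had 2, 2 and 41 UMIs in the class. Of the 41 UMIs at 14 days, 37 lay in 14 of the 16 cells in the cluster led by Ednrb, Itgb8, Sox4 and Pou3f1. That cluster had 2 UMIs of Nes in 6 naïve cells and 0 in 2 cells at 7 days. The Scn7a cluster had 0, 1 and 3. The part of the makeup in the Nes difference was not tested.

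In the vessel wall, Des marked pericyte-like cells at 490 [370 to 636], 564 [434 to 722] and 530 [445 to 627] CPM and vascular smooth muscle-like cells at 234 [176 to 304], 350 [288 to 421] and 243 [195 to 299] CPM. A UMI of Des was found in 53.6% to 69.6% of pericyte-like and 54.9% to 72.7% of smooth muscle-like cells, and in 0 of 642 naïve SGC-like cells, where a limit of 3 counts for a count of 0 still permits as much as 0.467% of cells with a UMI, although their median depth was higher. All Des intervals between libraries overlapped within pericyte-like cells. None of 2 members tested at 7 days and none of 3 at 14 days passed 2-fold in pericyte-like cells, beside 2.24% and 4.27% of all genes.

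Smooth muscle-like cells used 4 members at once, Vim, Synm, Des and Nes. Synm, a partner of desmin and vimentin, stood there at 463, 475 and 518 CPM, close to its level in neurons. Vim stood at 1296 [1155 to 1450], 847 [750 to 955] and 1276 [1163 to 1397] CPM, lower in the 7-day library only. The pericyte markers summed to 2788, 4337 and 2892 CPM in these cells and their own markers to 30299, 24195 and 27372 CPM, and their part in the result was not tested. Nes stood at 76.5 [45.3 to 121], 159 [119 to 210] and 147 [111 to 192] CPM. It was the 1 of 4 members past 2-fold at 7 days, beside 2.2% of all genes, on 18 and 51 UMIs, and none was past it at 14 days, beside 1.64%. Nes fell back below 2-fold at 7 days when doublets were kept, when cells were not filtered or when classes were taken from clusters.

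Endothelial-like cells had Vim at 392, 480 and 522 CPM, Nes at 146 [129 to 165], 133 [116 to 152] and 209 [192 to 227] CPM, and Synm at 127, 156 and 127 CPM. Nes was higher at 14 days by a log2 ratio of 0.51 [0.30 to 0.73]. None of 5 members passed 2-fold at either time, beside 1.11% and 2.11% of all genes. In fibroblast-like cells Vim, the 1 member tested, stood at 548, 775 and 768 CPM and did not pass 2-fold, beside 3.86% and 4.56% of all genes. In macrophage-like cells Vim stood at 107 [62.6 to 172], 146 [124 to 172] and 205 [178 to 235] CPM and did not pass 2-fold, beside 7.7% and 9.58%. The naïve value there rested on 17 UMIs in 65 cells.

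The neuronal members were also found at low levels outside neurons, and Nefh and Prph differed from neurons in their ratio to Nefl. Over all other gated cells Nefl stood at 23.1, 31.0 and 27.2 CPM, and the summed neuron markers at 100, 139 and 162 CPM against 8959, 10724 and 11273 CPM in neurons. For each UMI of Nefl, neurons had 0.0746, 0.101 and 0.126 of Nefh and 1.07, 1.06 and 1.17 of Prph. The other cells had 0.271 [0.205 to 0.355], 0.364 and 0.247 of Nefh and 0.624 [0.509 to 0.763], 0.580 and 0.672 of Prph. No interval of the other cells overlapped that of neurons for these 2 ratios in any library, while for Nefm, at 0.178 to 0.283 in the other cells and at most 0.252 in neurons, the intervals overlapped in all 3 libraries. For Ina they overlapped at 14 days only. The Nefh and Prph ratios lay between those of all neurons and those of the large-diameter type, which had 0.347 to 0.893 of Nefh and 0.184 to 0.378 of Prph. Where the RNA of neuronal members outside neurons came from, that of Nefm in Schwann-like cells included, was not tested.

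**Figure D5:**
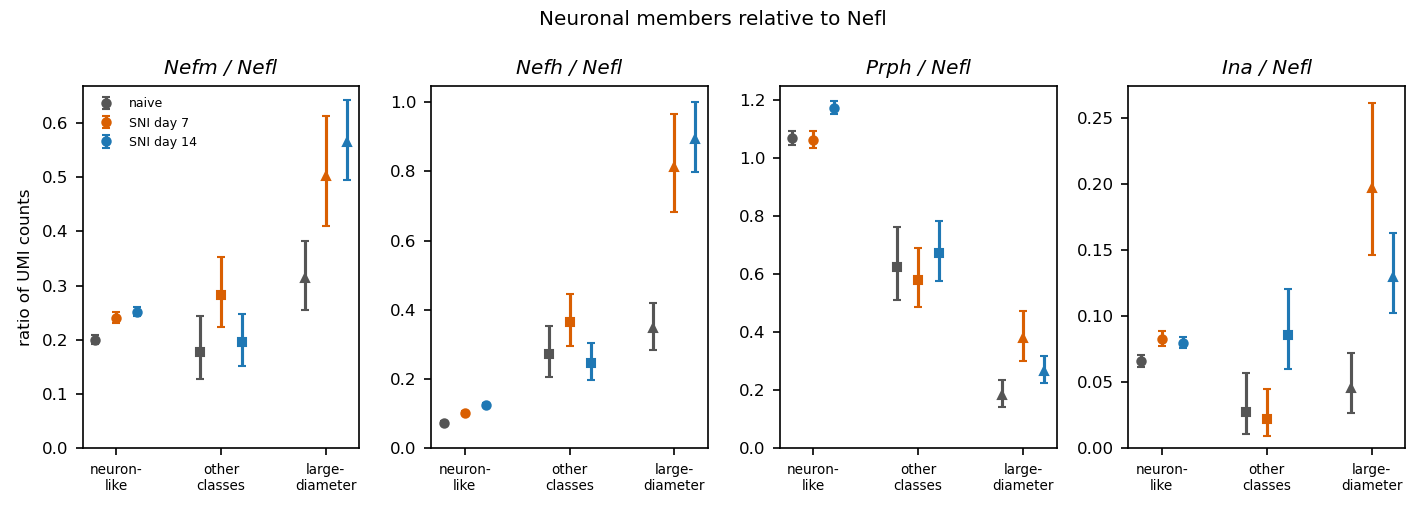
UMIs of Nefm, Nefh, Prph and Ina per UMI of Nefl (linear axes from 0, 95% exact intervals) in neuron-like cells, in all other gated classes together and in neurons of the large-diameter type, for the 3 libraries. Outside neurons Nefh was higher (0.247 to 0.364) and Prph lower (0.580 to 0.672) relative to Nefl than in neurons.

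Related genes gave the setting for these values. Of 12 other intermediate filament genes (Gfap, lamins, keratins and others), 5 could be tested in neurons at 7 days and 6 at 14 days, and 0 passed 2-fold, with median log2 ratios of 0.32 and 0.50. Of 11 linkers and turnover factors of the filaments, 8 and 9 could be tested and 0 passed, with medians of 0.22 and 0.30. All 17 genes of neuronal microtubules and axonal transport could be tested, with medians of 0.02 and 0.05. Over all genes tested in neurons, 3.76% and 5.74% passed and the medians were 0.02 and 0.08. Among them Map2, a microtubule-associated protein of dendrites, was higher at 14 days, at 30.4, 43.8 and 71.1 CPM. Outside neurons, Hspb1, a small heat shock protein that binds filaments, was past 2-fold lower in non-myelinating Schwann-like cells at both times (328, 112 and 119 CPM) and in smooth muscle-like cells at 7 days (922, 407 and 502 CPM). It was also lower in pericyte-like cells at 7 days, at 446 and 125 CPM. Gfap, the glial filament gene, was past 2-fold higher in SGC-like cells at both times by its ratio, at 3.86, 8.32 and 11.4 CPM, but had too few UMIs at 7 days for the rule of size. Of all genes tested in SGC-like cells, 0.737% and 1.29% were past 2-fold. For the single cell data the paper found Gfap mRNA in few naïve SGCs and reported no significant rise at either time. A ratio from 1 library per condition, near such low levels, carries no significance. Outside neurons, the genes of the microtubule list past 2-fold were Tubb3, Stmn2 and Map2 in myelinating Schwann-like cells, Tubb3 and Tubb2b in non-myelinating Schwann-like cells, Tubb3 in endothelial-like and macrophage-like cells and Tubb2b in fibroblast-like cells, all higher at 14 days, and Tubb2a, lower in fibroblast-like cells at 14 days. The summed neuron markers, Tubb3 and Stmn2 among them, went from 108 CPM in naïve to 164 CPM in 14-day myelinating Schwann-like cells, from 98.96 to 339 CPM in non-myelinating ones, from 88.0 to 152 CPM in endothelial-like, from 44.2 to 183 CPM in macrophage-like and from 48.1 to 147 CPM in fibroblast-like cells, and their part in these differences was not tested.

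The genes most like each member across 27 sums of class and library, by Pearson correlation of log2(CPM + 1) over 12781 genes, are given as a description, since sums from 1 library or class share cells and depth. They were Cep85l (r = 0.93), Ptpn21 and Dag1 for Vim, Sos2 (r = 0.88), Ing3 and Sox13 for Nes, and Prkar2a (r = 0.88), Tspan2 and Astn1 for Synm. For the neurofilament chains they were Syt4 (r = 0.96), Bex2 and Mtmr6 for Nefl, Pacsin1 (r = 0.92), Onecut2 and Mast1 for Nefm, and Tagln3 (r = 0.92), Elavl4 and Myt1l for Nefh. For Prph they were Mymk (r = 0.97), Ptpn5 and Defb42, and for Ina Frmpd1 (r = 0.95), Syt6 and Nptx2. For Des they were Higd1b (r = 0.99), Slc38a11 and Ndufa4l2, of which Higd1b and Ndufa4l2 were among the markers that defined the pericyte-like class. By Spearman rank correlation, 0 of the 3 genes were the same for Nefh, Prph and Des, and 1 or 2 for the others.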

How the data were processed

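Single cells were measured with 10x Chromium 3′ chemistry (v3). The authors deposited raw UMI counts per gene and cell in sparse matrices, limited to called cells and not normalized. The submitters' processing notes name Cell Ranger 3.0.2 and mm10, and the annotation is not given in the sources used here. A Seurat object of the series was not used here.

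From the deposited counts, cells were required to have 500 genes or more and no more than 20% of UMIs from mitochondrial genes, and doublets called by Scrublet (scanpy 1.11.5, expected rate 5%; 28, 24 and 20 cells in the naïve, 7-day and 14-day libraries) were left out. Each cell was scored as the mean over a class's markers of log(1 + counts per 10000), each divided by its 99th percentile. It was assigned to a class with a score of at least 0.25, 1.5 times the next, and UMIs of at least 3 markers. This left 301, 322 and 536 cells without a class. Leiden clusters (leidenalg 0.10.2, resolution 1) held 98.8% to 100% of the gated cells of their own class, except 78.1% for non-myelinating Schwann-like cells. Scores within 20% of the limits were found for 510 of 1425 SGC-like and 78 of 310 non-myelinating Schwann-like cells. Neuron types used a score of 0.15, 1.3 times the next, and 2 markers.

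UMIs were summed per class and library. Sums have exact Poisson, shares exact Clopper-Pearson and ratios exact conditional binomial intervals at 95%; for a count of 0 the limit is 3 counts of the total. PCR copies are collapsed by the UMIs, and the intervals cover counting error only. With 1 library per condition no test was run. The 2-fold rule was tried on simulated data for neurons at 14 days over naïve only. It recovered 199 of 200 genes changed 4-fold, and 8 of 11579 unchanged genes passed it. Changes near 2-fold and the other classes were not simulated. All 9 members are named; the other named genes are the 3 most correlated with each member, genes of 3 fixed lists past 2-fold, and markers. The members and lists were chosen with earlier results of these data known. Coordinates are from GENCODE vM21, and promoters from RefSeq tables of GRCm38.p6.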

Additional observations from a re-analysis of the deposited data

How the results depend on the processing

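No paired analysis was possible because the naïve, 7-day and 14-day mice gave 1 library each. Log2 ratios of the members were recomputed under other cell filters, doublets kept, classes from clusters, other scalings, without the cell with most UMIs, with depth limits on neurons and with free RNA subtracted. Of 675 recomputed ratios by class, 610 moved by less than the counting error of the main value, 65 moved further and 0 called ratios changed sign. The settings were unlike in this. With doublets kept or no cell filter, 0 of 72 ratios moved further. In neurons, 10 of 14 did with types weighted as in the naïve library. With at least 10000 UMIs and under 100 CPM of Fabp7, 8 of 14 did, and with at least 10000 UMIs alone 0 of 14. The cause of these moves was not tested. Of 40 values by neuron type and 16 by injury markers, 33 and 14 kept within counting error under other type definitions and other limits on the markers. Within peptidergic neurons the Nefh difference at 7 days, past 2-fold lower, turned to higher in neurons with little Fabp7, as given above. Of 81 shares of cells, 61 moved on thinning and 66 when at least 2 UMIs were required.

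The number of members past 2-fold moved as follows. In neurons, where 1 passed at each time, 2 passed (Vim and Nefh) with at least 10000 UMIs and under 100 CPM of Fabp7, and 0 with types weighted as in the naïve library, both settings chosen after seeing the data. With a minimum of 1000 genes and a maximum of 10% mitochondrial UMIs, 1 passed in SGC-like cells at each time, in pericyte-like cells at 7 days and in macrophage-like cells at 14 days, where 0 had passed. With free RNA subtracted, 2 passed in SGC-like cells at each time, 2 and 1 in myelinating Schwann-like cells, and 1 in endothelial-like cells at each time. In myelinating Schwann-like cells at 7 days the count was 0 without a cell filter and 2 with the mean of the cells' own CPM. In vascular smooth muscle-like cells at 7 days it was 0 without a filter, with doublets kept and with classes from clusters, and at 14 days 1 without the cell with most UMIs. In non-myelinating Schwann-like cells at 14 days it was 0 with classes from clusters. In macrophage-like cells at 14 days it was 1 without a filter and without the cell with most UMIs. Depth limits what can be said outside neurons: in pericyte-like, fibroblast-like and macrophage-like cells at most 3 of the 9 members had 50 UMIs.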
